A study of Mus musculus with 27 samples.

Results

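Schwann cells are the glia of peripheral nerve, and 8 genes that mark them or their myelin were followed gene by gene in mouse muscle that was repairing itself after cardiotoxin (CTX) injury. The members were Mbp, Pmp22, Prx, Mag, S100b, Ngfr, Sox10 and Ncam1. They were chosen by gene name, and each had 1 row in both deposited expression tables, that is 8 of 55852 entries in the table of injured muscle and 8 of 55677 entries in the table that holds the controls. RNA was sequenced from 27 libraries of male mice, of which 24 came from muscle collected 1, 4, 7 and 14 days (D1, D4, D7 and D14) after CTX, a snake venom toxin used to destroy muscle fibres so that their regeneration can be followed, with 3 WT and 3 KO libraries on each day. The other 3 libraries came from WT control muscle without CTX, which the study describes as the opposite leg, so that control and WT D1 libraries may come from the same mice, and no KO control muscle was analysed here. KO mice lacked Gsdme throughout the body according to the study, whereas the genotype field of the same libraries reads Gsdme knockdown, and its product, gasdermin E, opens pores in the plasma membrane after caspase cleavage. The study describes C57BL/6J mice and names the gastrocnemius, the deposited description names thigh muscle, and the labels give no age. The labels do not say whether the 3 libraries of a group came from separate mice, so that p-values measure only the spread between these libraries, which may be technical.

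A myelinating Schwann cell wraps a single segment of an axon with many layers of its own membrane. Compact myelin holds myelin basic protein (Mbp) and PMP22, the cell is anchored to its basal lamina through a periaxin (Prx) complex, and myelin-associated glycoprotein (Mag) lies on the inner membrane that faces the axon. The transcription factor SOX10 is needed throughout the lineage and acts with EGR2 on myelin genes. When a nerve is injured, Schwann cells lower their myelin genes and take up a repair state in which the neurotrophin receptor p75 (Ngfr) and the adhesion molecule NCAM (Ncam1) are raised. In muscle, S100b has been used as a marker of the Schwann cells that cap the neuromuscular junction. Ngfr and Ncam1 are not restricted to glia, since activated satellite cells, young myotubes and denervated fibres also carry NCAM, and Pmp22 is expressed in many cell types.

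To show the letters that lie just before the members whose levels moved together, 250 bases upstream of the most upstream RefSeq start are printed for Prx (chr7:27499074-27499323, plus strand), Mag (chr7:30914923-30915172, minus strand), Pmp22 (chr11:63128732-63128981, plus strand) and S100b (chr10:76253586-76253835, plus strand), in GRCm38.p6 and read 5′ to 3′ along the gene. Mbp and Sox10 moved with these genes too, but their windows are not printed, and for Sox10 none was available. RefSeq gave 1 start for Prx and for S100b, 3 for Mag and 4 for Pmp22. Capitals mark a match to 1 of 5 short motifs, searched on both strands.
Prx: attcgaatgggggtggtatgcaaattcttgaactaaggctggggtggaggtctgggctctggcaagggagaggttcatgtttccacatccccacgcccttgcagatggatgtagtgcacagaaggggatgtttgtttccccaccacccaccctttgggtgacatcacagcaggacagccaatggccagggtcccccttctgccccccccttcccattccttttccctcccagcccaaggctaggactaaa
Mag: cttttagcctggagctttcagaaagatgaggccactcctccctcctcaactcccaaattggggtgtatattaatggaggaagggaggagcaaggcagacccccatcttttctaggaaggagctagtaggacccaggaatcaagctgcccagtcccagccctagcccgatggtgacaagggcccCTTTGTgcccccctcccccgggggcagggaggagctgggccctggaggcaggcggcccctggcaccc
Pmp22: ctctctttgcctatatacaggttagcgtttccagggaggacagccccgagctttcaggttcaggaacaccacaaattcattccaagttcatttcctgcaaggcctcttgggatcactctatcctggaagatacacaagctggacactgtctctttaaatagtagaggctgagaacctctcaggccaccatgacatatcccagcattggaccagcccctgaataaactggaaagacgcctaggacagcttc
S100b: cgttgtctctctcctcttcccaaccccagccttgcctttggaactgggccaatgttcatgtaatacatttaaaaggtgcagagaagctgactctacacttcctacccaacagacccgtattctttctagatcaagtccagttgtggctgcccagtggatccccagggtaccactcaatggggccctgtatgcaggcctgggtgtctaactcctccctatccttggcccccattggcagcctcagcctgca

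For SOX factors the core ACAAAG was searched, with the related core ACAATG and with AACAAT, and for EGR factors the core GTGGGCG and the longer GCGGGGGCG. The only match in these 4 windows was ACAAAG in Mag, on the opposite strand and so read as CTTTGT, at 67 to 62 bases before the start. Of 32851 such windows of mouse genes, 16.5% held ACAAAG, 10.7% ACAATG, 9.42% AACAAT, 7.02% GTGGGCG and 2.57% GCGGGGGCG, and 37.3% held any of the 5. The GC content was 48.8% in Pmp22, 53.6% in S100b, 56.4% in Prx and 61.2% in Mag.

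Expression was given as TPM, a share of each library's transcripts after division by transcript length, so that levels may be compared between genes but the read depth is unknown and no detection limit can be given. Differences were tested with limma on log2(TPM + 1), which understates the change of low genes, and a gene was called where its Benjamini-Hochberg adjusted p over all tested genes was under 0.05. Between 11785 and 14704 genes reached 1 TPM in a library, and 25.4% to 61.4% of its TPM went to the 50 most abundant genes. KO D4 replicate 2 stood apart from its group: its 8 summed myogenic markers were at 55.1 TPM against 856 and 934 TPM in the other KO D4 libraries, and its 7 summed leukocyte markers were at 343 TPM against 2574 and 3081 TPM. WT D1 replicate 3 also stood apart, with 673 TPM of leukocyte markers against 2026 and 3153 TPM. So did KO D7 replicate 2, with 365 TPM of leukocyte markers against 1015 and 973 TPM. Its myogenic markers were at 96.8 TPM against 252 and 199 TPM, and its mature myofibre markers at 136566 TPM against 87539 and 84361 TPM. Gsdme was lower in the libraries labelled KO (means of 1.66, 1.33, 1.11 and 1.67 TPM from D1 to D14) than in WT (3.59, 2.77, 2.15 and 1.98 TPM), but was called on none of the days, and averaged over days the log2 difference was -0.55 (adjusted p = 0.0664). The study describes a sequencing batch for injured and uninjured muscle 1 day after injury and another for the time course. The labels give no batch, and the libraries of WT D1 are listed in both tables, with member values from 0.932 to 1.01 times each other, so that batch cannot be told apart from either injury or, on D1, genotype.

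Central glia, which also express Mbp, Mag, S100b and Sox10, were checked by their own markers. Those of oligodendrocytes and neurons were near or at 0: Olig2 was 0 in all libraries of both tables, Mog was at most 0.27 TPM, Mobp 0.23 TPM, Snap25 0.21 TPM, Syt1 0.1 TPM and Rbfox3 0.22 TPM. Aqp4, which muscle fibres also express, reached 9.57 TPM, in KO D4 replicate 2. The 7 central glia and neuron markers summed to 9.88 TPM there, against 1.62 and 1.2 TPM in the other KO D4 libraries. In KO D14 they summed to 8.19 to 9.1 TPM, and in WT D14 to 5.19 to 8.2 TPM. The sums were 5.1 to 8.51 TPM in WT D7, 4.23 to 6.28 TPM in KO D7 and 3.17 to 5.27 TPM in the controls. In the 24 injured libraries Pmp22 was the most abundant member (45.6 to 376 TPM), followed by Mbp (19.7 to 356 TPM), Ncam1 (1.71 to 133 TPM) and Prx (2.79 to 33.4 TPM). S100b, Sox10, Ngfr and Mag were low, with at least 1 TPM in 21, 22, 18 and 17 of the 24 libraries, so that small absolute steps of these 4 genes are large relative ones.

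**Figure D1:**
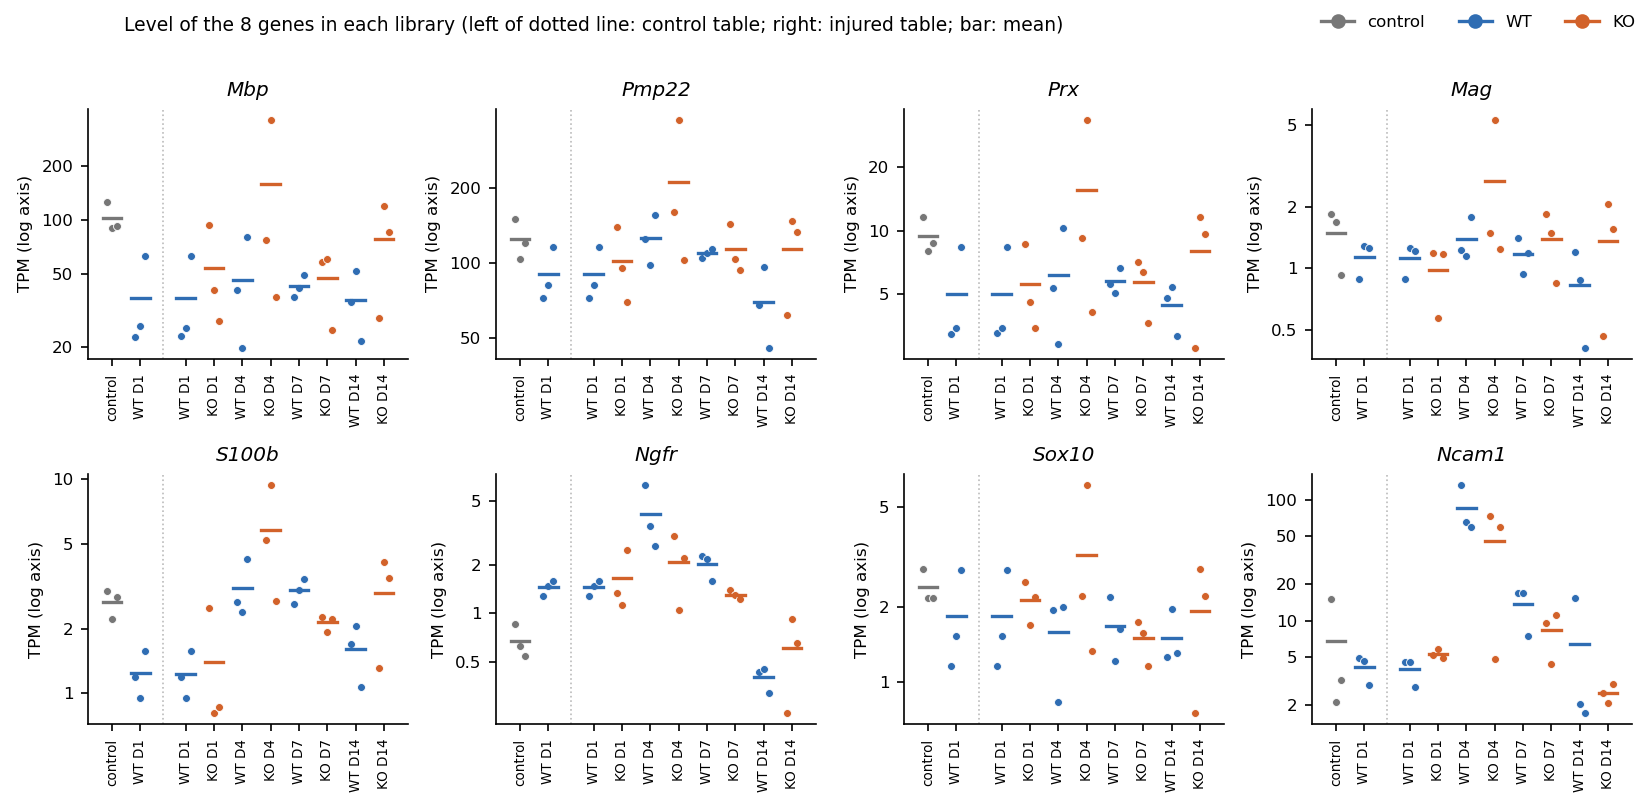
TPM of each of the 8 genes in every library on a log axis, by group on the x axis, with a point per library and a bar at the group mean (n = 3). To the left of the dotted line are control and WT D1 from the control table and to the right the 8 injured groups. Mbp of the 3 WT D1 libraries lies below that of the 3 controls, Ncam1 peaks on D4, and KO D4 replicate 2 is the highest point in 6 of the 8 panels.

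To ask what injury did to these genes within a day, WT D1 was set against control in the 6 libraries of the control table. Mbp fell on D1, and Prx and S100b were called lower with less certainty. Mbp (chromosome 18, 82475146 to 82585637, plus strand) was at 126, 90.8 and 92.8 TPM in the controls and 22.6, 25.9 and 63.0 TPM in WT D1, with means of 103 ± 19.8 and 37.2 ± 22.4 (SD, n = 3). All 3 injured libraries were thus below all 3 controls, with replicate 3 nearest to them. The log2 difference was -1.58 (SE 0.36, limma adjusted p = 0.00675), and it stayed called under every alternative tried.

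Prx (chromosome 7, 27499324 to 27520214, plus strand) was at 11.6, 7.97 and 8.78 TPM in the controls and 3.25, 3.47 and 8.36 TPM in WT D1. Replicate 3 of WT D1 lay within the control range, so that the groups overlapped, and the log2 difference of -0.88 (SE 0.33, limma adjusted p = 0.0443) was just past the threshold. The call was lost without a filter on low values (adjusted p = 0.115), and on leaving out any control (adjusted p = 0.0788 to 0.145), WT D1 replicate 1 (-0.68, adjusted p = 0.144) or replicate 2 (-0.71, adjusted p = 0.107). Pmp22 (chromosome 11, 63128982 to 63159547, plus strand) was at 149.8, 104 and 121 TPM in the controls and 72.5, 81.6 and 117 TPM in WT D1. The 2 lowest injured libraries were below the controls and the highest was among them, and the difference of -0.48 (SE 0.22, limma adjusted p = 0.091) was not called. Mag (chromosome 7, 30899176 to 30914873, minus strand) was at 1.84, 1.68 and 0.93 TPM and 0.89, 1.28 and 1.25 TPM, with overlapping groups and a difference of -0.20 (SE 0.22, adjusted p = 0.445).

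S100b (chromosome 10, 76253853 to 76261159, plus strand), a calcium-binding protein of Schwann cells and of some adipocytes, was at 3.00, 2.23 and 2.82 TPM in the controls and 1.19, 0.95 and 1.58 TPM in WT D1. The groups did not overlap, and the log2 difference was -0.72 (SE 0.21, limma adjusted p = 0.017), a call that was lost without a filter on low values (adjusted p = 0.0614) and without control replicate 1 (-0.66, adjusted p = 0.0666) or replicate 3 (-0.69, adjusted p = 0.0582). Sox10 (chromosome 15, 79154908 to 79165240, minus strand) was at 2.84, 2.17 and 2.16 TPM in the controls and 1.16, 1.53 and 2.81 TPM in WT D1, so that replicate 3 of WT D1 matched the controls while the other 2 were below them. Its difference of -0.30 (SE 0.25, adjusted p = 0.332) was not called.

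Ngfr (chromosome 11, 95568818 to 95587735, minus strand) was at 0.86, 0.62 and 0.54 TPM in the controls and 1.28, 1.48 and 1.59 TPM in WT D1. All 3 injured libraries were above the controls, and the log2 difference was 0.55 (SE 0.18, limma adjusted p = 0.0304). Ngfr reached 1 TPM in the WT D1 libraries alone, so that it entered the test only through the group where it was high, and its call is given as a description. The call was lost without the filter (adjusted p = 0.0596), with a replicate block that pairs same-numbered control and WT D1 libraries (adjusted p = 0.0814), and without any 1 of the controls (adjusted p = 0.0513 to 0.105), and without any 1 of the WT D1 libraries Ngfr could not be tested. Ncam1 (chromosome 9, 49502136 to 49798925, minus strand) was at 15.1, 2.09 and 3.20 TPM in the controls and 4.87, 4.57 and 2.93 TPM in WT D1, a difference of -0.23 (SE 0.55, adjusted p = 0.725), with control replicate 1 above every WT D1 library.

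Of the 8 members, 4 were called on D1, of which 3 were lower and the other was Ngfr, and the ranges of 3 did not overlap. Of the 13041 genes tested there, 61.1% were called, 55.4% higher and 5.64% lower, and 71.3% had ranges that did not overlap, so that called genes were mostly higher across the transcriptome while Mbp, Prx and S100b were lower. The median log2 difference was 0.66 over all genes and -0.39 over the members, and relative to the former Mbp was at -2.25, Prx at -1.54, S100b at -1.38, Pmp22 at -1.14, Sox10 at -0.96, Ncam1 at -0.90, Mag at -0.86 and Ngfr at -0.11. With libraries rescaled by the median of ratios, which recentres the libraries on their common genes, Ngfr was no longer called (0.20, adjusted p = 0.364), and Pmp22 (-1.20, adjusted p = 0.0116) and Sox10 (-0.77, adjusted p = 0.0429) were called lower. Without WT D1 replicate 3, the library with few leukocyte transcripts, Mbp was at -2.03, Prx at -1.25 and S100b at -0.83, and Pmp22 (-0.68, adjusted p = 0.0060) and Sox10 (-0.53, adjusted p = 0.0444) were called as well. In that library the 7 mature myofibre markers summed to 123958 TPM, against 74029 and 59165 TPM in the other WT D1 libraries and 119098 to 126078 TPM in the controls. The 9 acinar pancreas markers summed to 37.7 TPM there, against 3.86 and 5.85 TPM in the other WT D1 libraries and 0.42 to 0.53 TPM in the controls. The part of these cells in the result was not tested. In bulk muscle, fewer Schwann cells and less RNA per cell cannot be told apart.

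The other genes of the myelin pathway were read from 8 lists of 69 genes, of which 41 were tested here and 24 called (58.5%, against 61.1% of all genes), with a median difference of 0.26. Of the 41, 17 were called higher (41.5%, against 55.4% of all genes) and 7 lower (17.1%, against 5.64%). Of the compact myelin list 3 of 5 tested genes were called (1 higher, 2 lower), of the myelin lipid list 4 of 4 (1 higher, 3 lower), and of the non-compact myelin, paranode and node list 0 of 6, with 2 at an unadjusted p under 0.05. Aspa, which releases acetate from N-acetylaspartate for lipid synthesis, was lower by 1.02, and Cers2, which makes very long chain ceramides in many tissues, was higher by 1.61.

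The 4 tested regulators of the myelin programme were all called higher, as were 55.4% of all genes, among them Egr2 (1.06, adjusted p = 0.0351) and its co-repressors Nab2 (2.00) and Nab1 (1.53). Myeloid cells also express these genes, and the summed leukocyte markers were at 116 to 155 TPM in the controls and 673 to 3153 TPM in WT D1, a share in the result that was not tested. Egr2 was at 1.06, 0.83 and 1.00 TPM in the controls and 3.89, 5.36 and 1.19 TPM in WT D1, and its lowest WT D1 library, replicate 3, was the one with the fewest leukocyte transcripts. All 3 tested repair and neurotrophic genes were higher and included Atf3, an injury-induced transcription factor, at 1.93. Of the Schwann lineage list 2 of 5 were higher, including the intermediate filament gene Nes (2.51), which regenerating muscle and endothelium also express. Of the neuregulin and basal lamina list 7 of 10 were called, 6 of them higher, such as the sheddase Adam17 (1.32) and the laminin receptor subunits Itgb1 (1.30) and Itga6 (1.01), and of the neurotrophin list 1 of 4, which was lower.

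**Figure D2:**
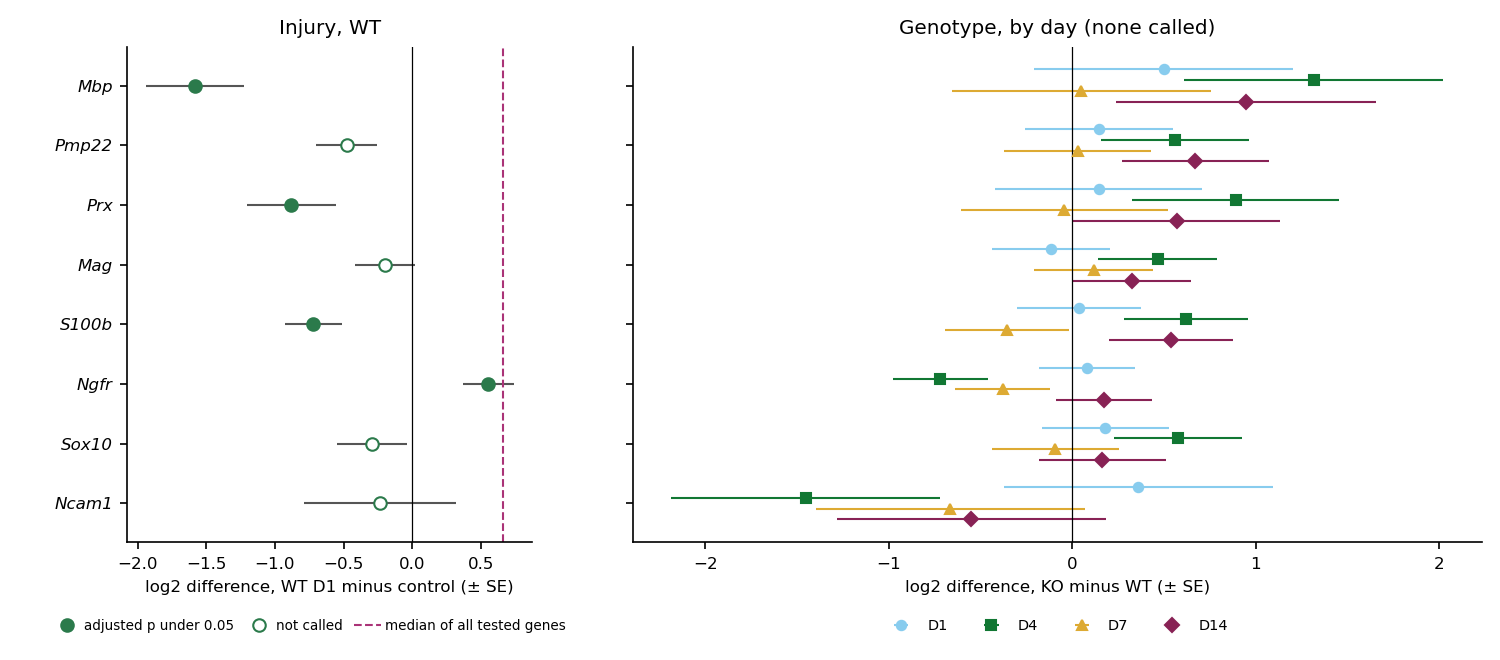
Log2 differences of the 8 genes on log2(TPM + 1) with bars of 1 SE. The left panel plots WT D1 minus control, with filled points for called genes and the dashed line at the median of all tested genes (0.66), and the right panel plots KO minus WT on each day. Mbp lies lowest on the left, and on the right no gene was called on any day, with Mbp highest and Ncam1 lowest on D4.

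To ask whether Gsdme loss altered these genes during repair, KO and WT were compared on each day. No member was called on any day, nor were the other genes of the lists, and the share called by limma across all 15718 tested genes was 0.00636% on D1 (1 gene), and 0% on each later day. Before adjustment, p was under 0.05 for 845, 3568, 481 and 324 genes from the first day to the last. Averaged over the 4 days it was 0.00636% (1 gene), and by the F test for a genotype difference that varied between days it was 0% (1203 genes at an unadjusted p under 0.05). Members at an unadjusted p under 0.05 numbered 0 on D1, 1 on D4 (Ngfr, adjusted p = 0.212), 0 on D7 and D14, 0 for the average and 0 by the F test, where their smallest adjusted p was 0.527. Ranges did not overlap for 1 member on D1 (6.71% of all genes), 0 on D4 (14%), 2 on D7 (16.5%) and 0 on D14 (8.42%).

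On D4 the KO mean of the 6 myelin and Schwann cell genes other than Ngfr and Ncam1 was above the WT mean, by a difference that was smaller in all 6 once a single library was left out. Mbp was at 40.9, 19.7 and 80.1 TPM in WT and 78.0, 356 and 37.4 TPM in KO, with means of 46.9 ± 30.6 and 157 ± 173 (SD, n = 3). Replicate 2 of KO D4 exceeded every other library, and the remaining KO libraries lay within the WT range. The log2 difference was 1.31 (SE 0.71, limma adjusted p = 0.242) and was 0.42 without that library.

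Pmp22 was at 125, 98.3 and 156 TPM in WT D4 and 160.1, 376 and 103 TPM in KO D4, and its difference of 0.56 (SE 0.40) became 0.04 without KO D4 replicate 2. Prx was at 5.34, 2.92 and 10.3 and 9.20, 33.4 and 4.10 TPM, a difference of 0.89 (SE 0.56) that became 0.14. Mag was at 1.23, 1.15 and 1.77 and 1.49, 5.28 and 1.24 TPM, and its 0.47 (SE 0.32) became -0.00. In all of these the groups overlapped and replicate 2 alone lay far above WT. S100b was at 2.68, 2.41 and 4.24 and 5.23, 9.39 and 2.69 TPM, with 0.62 (SE 0.34) becoming 0.25, and Sox10 was at 1.94, 0.83 and 1.99 and 2.21, 6.13 and 1.33 TPM, with 0.58 (SE 0.35) becoming 0.12. None of these 6 was called with or without the library.

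In that library the 7 mature myofibre markers summed to 93847 TPM against 44370 and 79842 TPM in the other KO D4 libraries, the 9 adipocyte markers to 2412 TPM against 1336 and 1715 TPM, and 9 acinar pancreas markers to 58.4 TPM against 11.8 and 15.4 TPM. Embryonic myosin (Myh3) was at 3.58 TPM there and at 259 and 268 TPM in the others. What these differences contribute to the high myelin genes was not tested. The acinar pancreas markers were high in other libraries too. They summed to 35.9 TPM in WT D1 replicate 3, against 3.84 and 5.85 TPM in the other WT D1 libraries. In WT D4 replicate 1 they summed to 25.0 TPM, against 7.59 and 7.08 TPM in the other WT D4 libraries.

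Ngfr and Ncam1 lay on the other side of WT on D4. Ngfr was at 6.23, 3.49 and 2.61 TPM in WT and 3.03, 1.04 and 2.20 TPM in KO, so that the groups overlapped between the lowest WT and the highest KO library. The difference was -0.72 (SE 0.26, limma adjusted p = 0.212), and -0.45 without KO D4 replicate 2. Ncam1 was at 133, 65.3 and 59.7 TPM in WT and 73.7, 4.82 and 59.5 TPM in KO. Replicate 2 of KO was at the level of D1 muscle while the other 2 lay within or just below the WT range, and the difference was -1.45 (SE 0.73, limma adjusted p = 0.228) and -0.28 without it.

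On D1 and D7 no member was called either. Mbp on D1 was at 23.0, 25.3 and 63.6 TPM in WT and 94.1, 40.9 and 27.7 TPM in KO, wide and overlapping groups with a difference of 0.50 (SE 0.71). The member whose ranges did not overlap on D1 was Ncam1, at 4.54, 4.51 and 2.79 TPM in WT and 5.16, 5.75 and 4.87 TPM in KO (0.36, SE 0.73, exact permutation p = 0.1, the smallest that 3 against 3 can give). On D7 Mbp was at 37.6, 42.3 and 49.8 TPM in WT and 58.3, 60.5 and 24.8 TPM in KO, a difference of 0.05 (SE 0.71). S100b on D7 was at 2.62, 3.05 and 3.43 TPM in WT and 2.28, 1.93 and 2.22 TPM in KO, with every KO library lower (-0.36, SE 0.34, limma adjusted p = 0.776). Ngfr on D7 was at 2.28, 2.16 and 1.59 TPM in WT and 1.40, 1.29 and 1.22 TPM in KO, again with every KO library lower (-0.38, SE 0.26, limma adjusted p = 0.776). Ncam1 on D7 was at 17.0, 16.9 and 7.42 TPM in WT and 9.46, 4.36 and 11.1 TPM in KO, overlapping groups with a difference of -0.66 (SE 0.73, limma adjusted p = 0.776). None of these passed the test. The lowest KO D7 library of Ncam1, replicate 2, was also the KO D7 library with the fewest leukocyte and myogenic transcripts.

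On D14, 2 of the 3 KO libraries had more myelin transcripts than any WT library and the other was among the lower ones. Mbp was at 35.3, 52.2 and 21.5 TPM in WT and 28.9, 119.7 and 85.8 TPM in KO, with means of 36.4 ± 15.4 and 78.1 ± 45.9 (SD, n = 3) and a difference of 0.95 (SE 0.71). Pmp22 was at 67.7, 96.5 and 45.6 TPM in WT and 61.9, 148 and 134 TPM in KO (0.67, SE 0.40), and Prx at 4.82, 5.42 and 3.16 and 2.79, 11.6 and 9.67 TPM (0.57, SE 0.56). S100b was at 1.70, 2.06 and 1.07 and 1.31, 4.09 and 3.45 TPM (0.54, SE 0.34). The same split of replicate 1 from replicates 2 and 3 recurred in Mag (0.47, 2.06 and 1.55 TPM in KO, 0.33, SE 0.32) and Sox10 (0.75, 2.83 and 2.20 TPM in KO, 0.16, SE 0.35). Adjusted p was 1 for every member. Within KO D14 the adipocyte markers had the same order, summing to 1932, 4641 and 2626 TPM. In WT D14 they summed to 1538, 1499 and 1568 TPM, the reverse of the order of Mbp, and KO replicate 1 was above all of these. The endothelial markers summed to 127, 191 and 215 TPM in KO D14 and to 134 to 174 TPM in WT D14. What either cell type contributes to the result was not tested.

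Averaged over the 4 days, Mbp was higher in KO by 0.70 on the log2 scale (SE 0.35, limma adjusted p = 0.861, exact permutation p = 0.0695 over 160000 assignments within days), and by 0.48 without KO D4 replicate 2. Pmp22 was at 0.35 (SE 0.20, exact permutation p = 0.105), Prx at 0.39 (SE 0.28), S100b and Sox10 at 0.21 (SE 0.17 each) and Mag at 0.20 (SE 0.16). Ngfr was at -0.21 (SE 0.13, exact permutation p = 0.166) and Ncam1 at -0.58 (SE 0.37, exact permutation p = 0.174). None passed the test, and with SEs of this size differences of about the same size as those seen could not be resolved. From D1 to D14 the median over all genes was 0.09, -0.28, -0.19 and 0.08, and that of the members 0.15, 0.57, -0.07 and 0.43.

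Of the 53 list genes tested in the injured table, 9 had a p under 0.05 before adjustment on D4 (17%, against 22.7% of all genes), and 3, 1 and 2 on D1, D7 and D14 (5.66%, 1.89% and 3.77%, against 5.38%, 3.06% and 2.06%). The 9 genes of D4 held 7 that were lower in KO and 2 that were higher. The lower ones included the neuregulin receptors Erbb3 (-0.94) and Erbb2 (-0.76) and their ligand Nrg1 (-0.68), Egr2 (-0.94), Nes (-1.09) and Runx2 (-1.03), and the higher ones were the juxtaparanodal potassium channel gene Kcna1 (0.42) and the neurotrophin gene Ntf5 (0.57), with limma adjusted p of 0.212 to 0.215. Erbb3 was at 17.6, 10.1 and 11.3 TPM in WT D4 and 9.22, 2.86 and 8.16 TPM in KO D4, lowest in replicate 2. The summed myogenic markers were lowest in that library too, at 55.1 TPM against 856 and 934 TPM, and their part was not tested. On D1 the genes were Cd9 (0.71), L1cam (0.67) and Lif (0.73), on D7 Jun (-0.52), and on D14 Drp2 (0.70), which binds periaxin, and Kcna1 (0.42). For the average they were Kcna1 (0.30), Nfasc (0.30) and the fatty acid hydroxylase gene Fa2h (0.49), with an adjusted p of 0.861.

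Over time, Ncam1 and Ngfr had their highest mean on D4 in both genotypes. No step between days was called for Mbp, Pmp22, Prx, Mag or Sox10 in either genotype. With library quality weights, whose estimation stopped before convergence, Mbp (1.07), Prx (0.71) and Sox10 (0.38) were called higher from D4 to D7 in WT, Pmp22 lower from D7 to D14 in WT (-0.70, also in a fit of the compared groups alone, adjusted p = 0.0363) and Mbp higher from D7 to D14 in KO (1.17). If the WT D1 libraries were sequenced apart from the time course, the WT steps that start on D1 cannot be told apart from batch. In WT, Ncam1 rose from D1 to D4 by 4.06 (SE 0.73, limma adjusted p = 0.00083), from 3.95 ± 1.00 to 86.0 ± 40.8 TPM (SD, n = 3), with every D4 library far above every D1 library. From D4 to D7 it fell by 2.55 (SE 0.73, limma adjusted p = 0.0321), to 17.0, 16.9 and 7.42 TPM. This call was lost without the filter (adjusted p = 0.0628), and without WT D4 replicate 1 (-2.19, adjusted p = 0.156), WT D4 replicate 2 (-2.69, adjusted p = 0.0507), WT D7 replicate 2 (-2.73, adjusted p = 0.0851) or WT D7 replicate 3 (-2.18, adjusted p = 0.139).

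In KO, Ncam1 rose from D1 to D4 by 2.25 (SE 0.73, limma adjusted p = 0.0382), and by 3.43 without KO D4 replicate 2 (adjusted p = 0.00049). The call was lost without any other single library of those groups (adjusted p = 0.0592 to 0.136), without the filter (adjusted p = 0.0816) and in a fit of those groups alone (adjusted p = 0.193). From D4 to D7 the KO difference was -1.76 (adjusted p = 0.442), and -2.93 without KO D4 replicate 2 (adjusted p = 0.00543), a call that thus depends on that library. The 8 myogenic markers followed the same course, from 114 to 173 TPM in WT D1 to 1149 to 1659 TPM in WT D4, 186 to 486 TPM in WT D7 and 22.0 to 35.8 TPM in WT D14, and in KO D4 replicate 2, where Ncam1 was at 4.82 TPM, they were at 55.1 TPM. The 8 synaptic and denervation-sensitive myofibre markers took a like course in WT, at 133 to 179 TPM on D1 and 264 to 535 TPM on D4. They were at 78.8 to 153 TPM on D7 and 52.5 to 62.1 TPM on D14. In KO D4 replicate 2 they were at 65.6 TPM, against 242 and 283 TPM in the other KO D4 libraries. The part of myogenic cells or of such fibres in the level of Ncam1 was not tested.

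Ngfr rose in WT from 1.27, 1.48 and 1.59 TPM on D1 to 6.23, 3.49 and 2.61 TPM on D4 (1.00, SE 0.26, limma adjusted p = 0.0101), with no overlap, although the call was lost without WT D4 replicate 1 (0.72, adjusted p = 0.0693), with quality weights (0.83, adjusted p = 0.0503) and in a fit of the compared groups alone (adjusted p = 0.0778). The myogenic markers given above were also high on D4, and their part in the level of Ngfr was not tested. From D4 to D7 it was at -0.71 (adjusted p = 0.0748), and at -0.93 without WT D4 replicate 3 (adjusted p = 0.043). By D14 it had fallen to 0.43, 0.45 and 0.32 TPM, the lowest level of any injured group, by 1.10 from D7 (SE 0.26, limma adjusted p = 0.00961) and by 0.80 from D1 (SE 0.26, limma adjusted p = 0.017). The D7 to D14 call was lost without WT D7 replicate 1 (-1.03, adjusted p = 0.053) or WT D14 replicate 3 (-1.06, adjusted p = 0.0574), and the D1 to D14 call without WT D1 replicate 2 (-0.79, adjusted p = 0.0527) or WT D14 replicate 3 (-0.76, adjusted p = 0.0554).

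In KO, Ngfr was at 1.33, 1.12 and 2.48 TPM on D1, 3.03, 1.04 and 2.20 TPM on D4, 1.40, 1.29 and 1.22 TPM on D7 and 0.24, 0.92 and 0.65 TPM on D14. The fall from D1 to D14 was called (-0.71, SE 0.26, limma adjusted p = 0.0291), the step from D1 to D4 was not (0.20, SE 0.26), and neither was that from D7 to D14 (-0.55, adjusted p = 0.259). The D1 to D14 call was lost without KO D1 replicate 3 (-0.49, adjusted p = 0.166), KO D14 replicate 1 (-0.54, adjusted p = 0.137) or KO D14 replicate 3 (-0.74, adjusted p = 0.0522), and also without the filter (adjusted p = 0.0656) and with median-of-ratios scaling (-0.43, adjusted p = 0.0865). The WT and KO courses of Ngfr were not shown to differ (F test, adjusted p = 0.527).

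S100b rose in KO from 2.51, 0.81 and 0.86 TPM on D1 to 5.23, 9.39 and 2.69 TPM on D4 (1.45, SE 0.34, limma adjusted p = 0.00721), with no overlap, a call that was lost with quality weights (1.05, adjusted p = 0.103) and in a fit of the compared groups alone (adjusted p = 0.127). In WT the same step, from 1.19, 0.95 and 1.57 to 2.68, 2.41 and 4.24 TPM, had no overlap either but missed the threshold (0.86, SE 0.34, adjusted p = 0.0801). Other calls on leaving out a library were S100b from D1 to D14 in KO without KO D1 replicate 1 (1.03, adjusted p = 0.0258) or KO D14 replicate 1 (1.06, adjusted p = 0.0192), Pmp22 from D1 to D4 in KO without KO D4 replicate 3 (1.32, adjusted p = 0.0397), and Ncam1 from D7 to D14 in WT without WT D14 replicate 1 (-2.29, adjusted p = 0.0353). With all libraries and no alternative applied, those differences were 0.72, 0.90 and -1.45 and were not called. S100b was called there with median-of-ratios scaling, and Ncam1 with quality weights. From D7 to D14 in WT S100b fell with no overlap but was not called (-0.64, SE 0.34, limma adjusted p = 0.138). That fall was called with quality weights and in a fit of the compared groups alone.

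In counts, the members called in WT were 2 from D1 to D4, 1 from D4 to D7, 1 from D7 to D14 and 1 from D1 to D14, against 19.8%, 12.3%, 31.8% and 45.7% of all 15718 genes. The 2 members of the first step were higher (14.6% of all genes), and those of the later steps lower (9.31%, 30.9% and 40.5%). In KO they were 2, 0, 0 and 1 over the same steps, against 19.4%, 0%, 0.56% and 51.3% of all genes, with the first 2 higher (7.18%) and the last lower (42.8%). The steps with no member called had 2 members (Ncam1 and S100b, D4 to D7) and 1 member (Ngfr, D7 to D14) at an unadjusted p under 0.05. From D1 to D14 the median over all genes was -0.44 in WT and -0.45 in KO, and over the members -0.11 and 0.17. WT D1, D4 and the other groups each stand in several of these steps, which are therefore not independent.

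Of the 53 list genes, 8 were called from D1 to D4 in WT (15.1%, against 19.8% of all genes), all higher (14.6% of all genes). They included the neuregulin receptors Erbb3 (2.47) and Erbb2 (1.30), the laminin chains Lama4 (1.61) and Lama2 (0.95), Drp2 (1.36) and Aspa (1.03). The summed myogenic markers also rose over this step, from 114 to 173 TPM in WT D1 to 1149 to 1659 TPM in WT D4. Their part in the levels of these genes was not tested. From D4 to D7 in WT 4 were called (7.55%, against 12.3% of all genes), with Erbb3 (-1.85), Cnp (-0.71) and Dag1 (-0.56) lower and Ntf5 (1.10) higher. From D7 to D14 in WT all 16 called were lower (30.2%, against 30.9% of all genes), among them Lama4 (-1.45), Nes (-1.42), Egr2 (-1.22), Nab2 (-1.20), Cd9 (-1.19), Atf3 (-1.13), Erbb2 (-1.04) and Jun (-0.63), a regulator of the repair state. From D1 to D14 in WT 19 were called (35.8%, against 45.7% of all genes), 16 of them lower (30.2%, against 40.5%), with Atf3 (-2.77), Nes (-1.66), Egr2 (-1.36) and the neurotrophic factor Gdnf (-0.89) lower and Aspa (1.62) higher.

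In KO 12 list genes were called from D1 to D4 (22.6%, against 19.4% of all genes), 7 higher and 5 lower. Higher were Aspa (1.44), Erbb3 (1.31), Lama2 (1.07), Ntrk2 (0.94), Drp2 (0.94), the Schwann cell signal Lgi4 (0.76) and the laminin receptor gene Dag1 (0.68), and those lower included Atf3 (-1.60), Nab1 (-1.05), Cers2 (-0.96) and L1cam (-0.75). None was called from D4 to D7 or from D7 to D14 in KO, with 8 at an unadjusted p under 0.05 in each step (15.1%, against 9.89% and 19.3% of all genes). From D1 to D14 in KO 23 were called (43.4%, against 51.3% of all genes), 18 of them lower (34%, against 42.8%), with Atf3 (-2.40), Nab2 (-1.76), Runx2 (-1.59), Nes (-1.55), Cd9 (-1.28), L1cam (-1.28) and Egr2 (-1.28) lower and Aspa (1.52) higher. In both genotypes the genes of the repair list that were called between D1 and D14 were lower on D14, as were most called genes of the whole table. The summed leukocyte markers were at 674 to 3151 TPM in WT D1 and 135 to 478 TPM in WT D14, and their part was not tested.

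Across the injured groups the myelin genes had no clear order. With the 8 group means ranked, the ranges of neighbours overlapped in 7 of 7 pairs for Mbp, Pmp22, Prx, Mag, S100b and Sox10. For Mbp the means ran from 36.4 ± 15.4 TPM in WT D14 to 157 ± 173 TPM in KO D4, and for Sox10 from 1.49 ± 0.298 TPM in KO D7 to 3.22 ± 2.56 TPM in KO D4 (SD, n = 3). Ngfr and Ncam1 had 1 gap each among 7 neighbours. For Ngfr it lay between KO D7 (1.30 ± 0.0907 TPM) and KO D14 (0.603 ± 0.342 TPM), and no D14 library reached the lowest library of an earlier day, and for Ncam1 between KO D1 (5.26 ± 0.448 TPM) and WT D1 (3.95 ± 1.00 TPM). The order of Ncam1 began with WT D4, KO D4, WT D7 and KO D7.

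The control muscle may be set beside D14 without a test, since the 2 tables were normalized separately. Mbp had means of 103 ± 19.8 TPM in control, 36.4 ± 15.4 TPM in WT D14 and 78.1 ± 45.9 TPM in KO D14 (SD, n = 3), and all 3 WT D14 libraries and 2 of the KO D14 libraries were below the lowest control. Prx was at 9.46 ± 1.92, 4.47 ± 1.17 and 8.0 ± 4.61 TPM, S100b at 2.68 ± 0.403, 1.61 ± 0.501 and 2.95 ± 1.46 TPM, and Ngfr at 0.673 ± 0.167, 0.4 ± 0.07 and 0.603 ± 0.342 TPM.

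**Figure D3:**
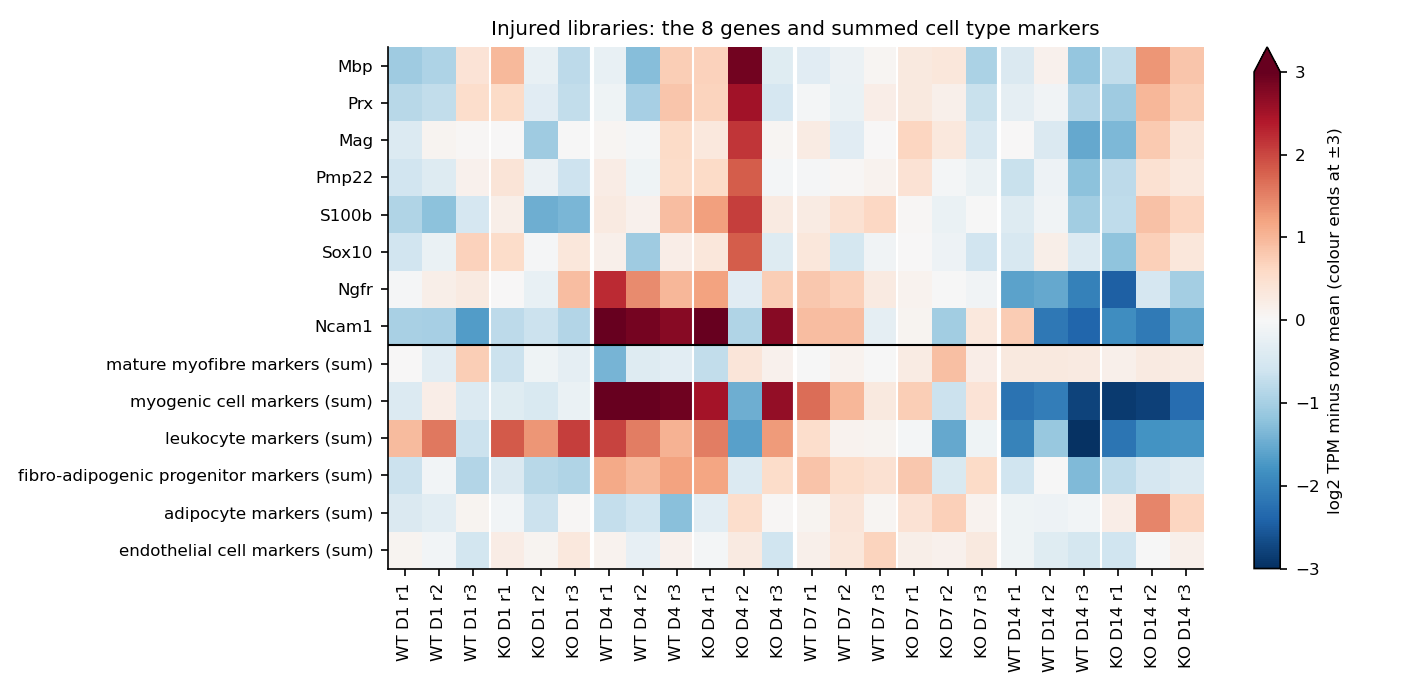
Log2 TPM minus the row mean over the 24 injured libraries for the 8 genes (upper rows) and for summed markers of other cell types (lower rows), with a column per library, red above and blue below the mean, and colours ending at ±3. The 6 upper genes are all red in KO D4 replicate 2, and Ncam1 is red in the D4 libraries in which the myogenic marker sum is red.

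The 6 members other than Ngfr and Ncam1 varied together from library to library within a group. KO D4 replicate 2 was the highest library of each of these 6. Over the 24 injured libraries, the 15 pairs among Mbp, Pmp22, Prx, Mag, S100b and Sox10 had Pearson's r of log2(TPM + 1) from 0.594 to 0.980, and from 0.778 to 0.985 once each group's mean was taken away. The highest was Mbp with Prx (0.980). On log2(TPM + 1), without the 2 libraries farthest from the median of the gene named first in each pair, the range was 0.280 to 0.959. The libraries left out thus differed between pairs, and the values with group means taken away were not recomputed in this way. The 12 pairs of Ngfr or Ncam1 with these 6 had r from -0.170 to 0.333, and -0.540 to -0.022 within groups. Ngfr and Ncam1 had r = 0.804 with each other, and 0.556 within groups. These values are a description, since the points share libraries, tissue composition and a common TPM total.

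The genes most like each member over these 24 libraries were then listed. For Mbp they included Mal (r = 0.976) and Ugt8a (0.966), and for Prx again Mal (0.957) and Ugt8a (0.946). Mal encodes a proteolipid of compact myelin, and Ugt8a the enzyme that makes the myelin lipid galactosylceramide. For Pmp22 they included Mgat3 (0.890) and Cntf (0.885), and they were for Mag Cadm4 (0.863), Pllp (0.837) and Gjb1 (0.807), for S100b Mgat3 (0.904), Efnb3 (0.854) and Dmtn (0.853), and for Sox10 Cadm4 (0.908), Gpr37l1 (0.869) and Cldn19 (0.859). Cadm4, Gjb1 and Cldn19 encode an adhesion molecule, a connexin and a claudin of Schwann cell membranes. For Ngfr they were Reep2 (0.955), Pja1 (0.953) and Traf4 (0.948), and for Ncam1 Apbb1 (0.953), Tmem9 (0.949) and Cspg4b (0.945), none of which was on the lists. Without the 2 libraries farthest from the member's median, every r given here was lower. In the order given, those of Mag became 0.646, 0.653 and 0.505, and those of Sox10 0.791, 0.722 and 0.755. For S100b they became 0.820, 0.768 and 0.782, and for Mbp with Mal and Ugt8a 0.959 and 0.934.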

How the data were processed

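Per the labels, the 27 libraries were prepared from total RNA of muscle (SMARTER mRNA kit) for paired-end Illumina sequencing. The authors deposited gene TPM in a table of 24 injured libraries and another of 6 libraries (control and WT D1), with group means that were not used, and the submitters' processing notes name mm10. The aligner, the counting tool and the annotation are not given in the sources used here. TPM is not a count, so limma 3.58.1 (R 4.3.3) was fitted with a variance trend to log2(TPM + 1) of genes with at least 1 TPM in at least 3 libraries, once for the 8 injured groups and once for the control table, with Benjamini-Hochberg adjustment over all tested genes. All 8 members passed this filter in both tables. Single values were also tested by two-sided exact permutation of genotype. The members, the lists and the tests were chosen with earlier results of these data known. Named were all members, per comparison the called list genes of largest difference (at most 3 a list and 12 a comparison; where none was called, those at an unadjusted p under 0.05), Gsdme, and the 3 genes most correlated with each member. Results of some of these genes are not reported here. Promoters and gene positions came from RefSeq (GRCm38.p6) and GENCODE (GRCm38). The fits were tested on simulated data. Alternatives were a pseudocount of 0.1 TPM, no filter or at least 5 TPM, median-of-ratios scaling, library quality weights, a replicate block, a fit of the compared groups alone and each library left out in turn.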

Additional observations from a re-analysis of the deposited data

How the results depend on the processing

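The count of members called between KO and WT was 0 on each day, for the average and by the F test under every alternative run. The counts between control, days and groups moved as follows, and why they moved was not tested. For WT D1 against control (4 members called), it was 1 without a filter, 2 at 5 TPM (3 members tested), 7 with quality weights and 1 to 5 with a library left out. From D1 to D4 in WT (2) it was 1 at 5 TPM, 1 with weights, 1 with only the groups compared and 1 to 2 with a library left out. From D4 to D7 in WT (1) it was 0 without a filter, 5 with weights and 0 to 2 with a library left out. From D7 to D14 in WT (1) it was 0 at 5 TPM, 4 with weights, 3 with only the groups compared and 0 to 2 with a library left out, and from D1 to D14 in WT (1) it was 0 at 5 TPM and 0 to 1 with a library left out. From D1 to D4 in KO (2) it was 1 without a filter, 1 at 5 TPM, 1 with weights, 0 with only the groups compared and 1 to 2 with a library left out. From D4 to D7 in KO (0) it was 0 to 1 with a library left out, and from D7 to D14 in KO (0) it was 3 with weights. From D1 to D14 in KO (1) it was 0 without a filter, 0 at 5 TPM, 2 with only the groups compared and 0 to 2 with a library left out. No called difference of a member changed direction. Among the recomputed values of these differences 14 lost the threshold and 59 did not, and with a library left out 27 did and 42 did not. The estimation of the quality weights stopped before convergence in both tables.

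Same-numbered replicates were not treated as pairs. Control and WT D1 may be legs of the same mice, but no label ties the numbers to mice, and deviations from group means correlated at 0.0021 to 0.0611 between WT D1 and control (3 pairs) and at -0.4008 to 0.3946 between WT and KO of the same day (12 pairs, 4 over 0.1). With a replicate block 3 members were called for WT D1 against control, since Ngfr (0.55, adjusted p = 0.0814) was not, and the counts of the other comparisons were as without it. Depth is unknown, so that for Mag, Ngfr, Sox10 and S100b, which were below 10 TPM in every library, counting error could not be set against the spread between 3 libraries.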

Other observations

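Ncam1 was high in a pair of libraries outside D4, a pattern picked out after its values had been seen. It was at 15.11 TPM in control replicate 1 against 2.09 and 3.20 TPM in the other controls, and at 15.24 TPM in WT D14 replicate 1 against 1.71 to 2.97 TPM in the other 5 D14 libraries. When the 55419 genes found in both tables were ranked by the smaller of their log2 excesses over the highest other library in these groups (with 0.5 TPM added), Ncam1 ranked 1, with excesses of 2.08 and 2.18. The next gene with more than 5 TPM was Atf7ip at rank 4 (1.66 and 1.09). The summed myogenic markers were at 33.5 and 32.6 TPM in these libraries, within 33.5 to 35.4 TPM in the controls and 22.0 to 35.8 TPM in WT D14. The summed synaptic and denervation-sensitive markers were at 56.1 and 52.5 TPM, against 55.3 to 56.6 TPM in the controls and 62.1 and 55.0 TPM in the other WT D14 libraries.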
